A study of Mus musculus with 6 samples.

Results

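The replication-dependent histone genes encode the histones that package newly made DNA. They were taken as the rows whose symbol starts with Hist1h, Hist2h, Hist3h or Hist4h, and 68 of the 20475 rows of the expression table matched. By protein there were 6 genes for the linker histone H1, 18 for H2A, 19 for H2B, 12 for H3 and 13 for H4. By genomic cluster, which the number in the symbol gives, 54 lay in cluster 1 on chromosome 13, 10 in cluster 2 on chromosome 3, 3 in cluster 3 on chromosome 11 and 1 in cluster 4 on chromosome 6. At least 5 normalised reads in 2 or more libraries were found for 63 of the 68, and these are described here. Hist1h1a, Hist3h2ba, Hist3h2bb-ps and Hist4h4 stayed under that level. Hist1h1t, a testis H1, had 0 reads in all 6 libraries, where the floor of 3 reads is 0.102 to 0.134 CPM.

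The libraries came from NIH3T3, a mouse embryonic fibroblast line, at passage 5, and RNA was taken 48 h after treatment. In 2 libraries the cells had received extracellular vesicles (EVs, membrane-bound particles that cells release) that MDA-MB-231 cells shed, which are a human line of triple-negative breast cancer. In 2 others the EVs came from MCF10A cells, which are human breast epithelium and form no tumours. The last 2 had only phosphate-buffered saline (PBS), the liquid that carried the EVs. The labels do not say that replicates were separate cultures, so p-values measure the spread between these libraries, which may be technical.

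Replication-dependent histone mRNAs accumulate in S phase and, unlike most mRNAs, end in a conserved stem-loop in place of a poly(A) tail. The stem-loop binding protein Slbp holds that end, guides its cleavage together with the U7 small nuclear ribonucleoprotein, and stays with the mRNA through translation and decay. Histone genes occur in many nearly identical copies, whereas the replication-independent variants are mostly single genes with poly(A) tails. Library preparation used a kit for stranded mRNA, and kits of this kind usually capture poly(A) RNA. How far the values below reflect tailed and untailed transcripts was not tested.

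Because the copies are so alike, the sequence they share bears on every value. Each 50-base window of the annotated coding sequence (GENCODE vM21, mouse build GRCm38) was looked up in the transcripts of all other members. The median share of windows found in no other member was 89.0% for H1 genes, 16.6% for H2A, 23.6% for H2B, 14.6% for H3 and 28.8% for H4. The 13 H4 members encode 1 protein and the 12 H3 members 2, against 9 different proteins from the 18 H2A members. A further H2A gene outside the clusters, H2afx on chromosome 9, encodes the variant H2A.X, which marks DNA breaks when phosphorylated. H2afx shared at least 1 window with 16 of the 18 H2A members. The longest run was 117 coding bases, positions 181 to 297 counted from the start codon, and it was found letter for letter in 12 of them. That run and the same positions of the 6 H2A members that lack it are printed to show which members can be told apart. Capitals mark bases that differ from H2afx.
H2afx: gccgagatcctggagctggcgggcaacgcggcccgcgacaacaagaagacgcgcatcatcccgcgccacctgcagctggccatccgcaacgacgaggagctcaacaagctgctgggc
Hist1h2af: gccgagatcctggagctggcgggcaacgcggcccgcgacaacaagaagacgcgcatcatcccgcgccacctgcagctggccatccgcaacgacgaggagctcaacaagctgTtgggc
Hist1h2ak: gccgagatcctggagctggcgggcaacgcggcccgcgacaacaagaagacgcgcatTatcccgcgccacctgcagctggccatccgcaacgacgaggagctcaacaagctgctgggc
Hist2h2ac: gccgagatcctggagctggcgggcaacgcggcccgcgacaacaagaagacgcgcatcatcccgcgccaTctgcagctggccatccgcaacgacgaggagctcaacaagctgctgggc
Hist2h2ab: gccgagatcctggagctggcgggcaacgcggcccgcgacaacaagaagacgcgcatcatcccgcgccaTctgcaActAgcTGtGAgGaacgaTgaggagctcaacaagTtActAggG
Hist3h2a: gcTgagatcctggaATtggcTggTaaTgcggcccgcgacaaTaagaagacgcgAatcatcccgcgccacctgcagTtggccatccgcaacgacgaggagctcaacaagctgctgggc
Hist1h2aa: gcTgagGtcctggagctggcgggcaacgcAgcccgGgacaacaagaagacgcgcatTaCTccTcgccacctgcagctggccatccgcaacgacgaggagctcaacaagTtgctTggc
Hist1h2af, Hist1h2ak and Hist2h2ac each differed from the run at 1 base. Hist3h2a differed at 9 bases, Hist1h2aa at 10 and Hist2h2ab at 13, and these 3 were the H2A members with most of their coding windows (87.7%, 97.6% and 75.7%) in no other member. How the authors assigned a read that fits several genes is not stated in the sources used here.

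Several members are identical over their whole coding sequence. Hist1h2bq and Hist1h2br had the same reads in all 6 libraries, and so had Hist2h3c1 and Hist2h3c2. Hist1h2ao and Hist1h2ap differed by at most 2 reads in a library, and Hist2h2aa1 and Hist2h2aa2 by at most 3. Each of these pairs is best read as 1 measurement. Hist1h4m and Hist1h4n also have the same coding bases, but they differed by up to 37 reads. Hist1h4n had 74 and 70 reads with MDA-MB-231 EVs, 46 and 41 with MCF10A EVs, and 52 and 24 with PBS. Hist1h4m had 37 and 35, 23 and 20, and 26 and 12. Their reads ran nearly in proportion, so these 2 cannot be taken as independent measurements either.

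The stem-loop was found just past the stop codon in 43 of the 67 members with an annotated coding sequence. Only 40 of the 67 have 80 or more annotated bases past the stop, so a missing match can be a short annotation. The most frequent 16-base form, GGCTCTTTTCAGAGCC, stood in 24 members and in 0 of the 11 H4 members with a stem-loop, which carry other bases in the stem. Forms of members whose values are given below are printed with 5 flanking bases on each side and the stem-loop in capitals.
Hist1h1c: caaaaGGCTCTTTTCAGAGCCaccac
Hist1h2ao: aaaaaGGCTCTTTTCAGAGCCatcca
Hist3h2a: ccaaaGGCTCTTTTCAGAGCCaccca
Hist1h3e: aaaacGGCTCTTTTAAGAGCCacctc
Hist1h4n: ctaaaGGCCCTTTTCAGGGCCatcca
Hist2h4: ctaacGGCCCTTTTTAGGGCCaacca

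Most H2A genes had values far above those of the other families. Per kilobase of coding sequence, the mean of the 6 libraries had a median of 4308 normalised reads over the 18 H2A members, against 108 for 17 H2B, 63 for 12 H3, 114 for 12 H4 and 72.5 for 4 H1 members. Hist1h2ao, a core H2A gene of cluster 1, was the highest with 11299 per kilobase, and Hist2h2aa2, its counterpart in cluster 2, had 5567. The lowest H2A member was Hist1h2aa, the testis H2A gene, with 89.5 per kilobase. Hist3h2a and Hist2h2ab, which like Hist1h2aa have mostly their own sequence, had 633 and 440 per kilobase. The highest H2B member had 367. A read that fits several H2A genes may stand in more than 1 of them, and its part in the H2A level was not tested. Of the germ cell markers, Dazl, Ddx4, Tex101 and Stra8 were at 0 in all libraries, and Sycp3 had 37.8 to 64.0 normalised reads.

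**Figure D1:**
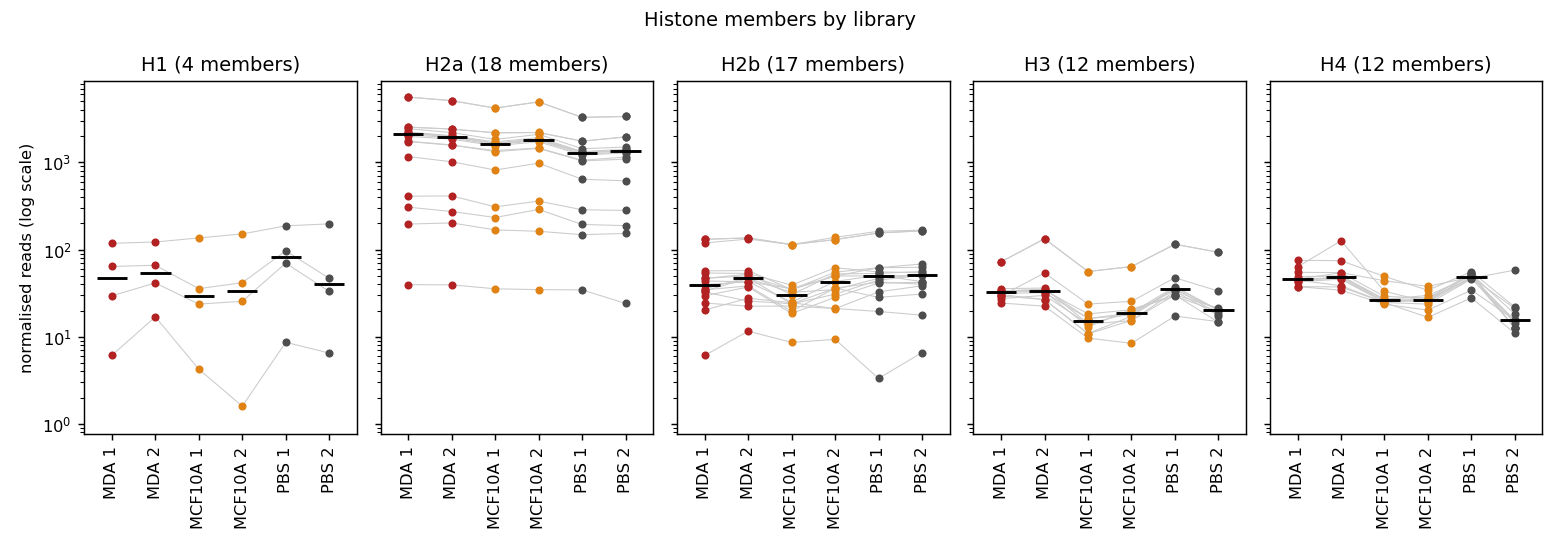
Normalised reads (log axis) of the 63 members described, by family and library. MDA stands for MDA-MB-231 EV, and the digit is the replicate. Grey lines join the values of a member, and black bars are medians of the members shown. The H2A panel lies mostly above 1000 reads, most other members lie under 200, and the H4 members are split between the 2 PBS libraries.

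H2A transcripts were higher after EVs of either kind. With MDA-MB-231 EVs, 17 of the 18 H2A members rose against PBS, with log2 changes of 0.40 to 0.79 and a median of 0.63 over the 18, while 17.9% of the 15025 genes tested rose. With MCF10A EVs, 15 rose, by 0.24 to 0.51, with a median of 0.39 over the 18, while 17.1% of all genes rose. The median H2A member had only 16.6% of its coding windows in no other member. These calls therefore cannot be taken as independent measurements, and how far shared reads make them alike was not tested. Among the H2A genes with mostly their own sequence, Hist3h2a was called with both EVs, Hist2h2ab with MDA-MB-231 EVs alone and Hist1h2aa with neither. No H2A member was called lower by limma at a Benjamini-Hochberg adjusted p under 0.05, and the count at an unadjusted p under 0.05 was 0 in both comparisons, as was the count by edgeR and by DESeq2. Both comparisons share the PBS libraries. With limma without a trend in the prior spread, 17 H2A members were called higher with MDA-MB-231 EVs, but 1 with MCF10A EVs. That run called 1634 and 1228 of the 15025 genes higher, against 2688 and 2571 in the main run. In bulk RNA, more cells in S phase and more histone RNA per cell cannot be told apart.

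Hist1h2ao had 5600 and 5090 normalised reads with MDA-MB-231 EVs, 4188 and 4929 with MCF10A EVs, and 3276 and 3356 with PBS. All EV libraries were above both PBS libraries, and the MDA-MB-231 EV libraries were above the MCF10A EV libraries. The log2 change was 0.69 ± 0.06 (SE, n = 2 each) for MDA-MB-231 EVs (limma adjusted p = 3.13e-07) and 0.45 ± 0.06 for MCF10A EVs (limma adjusted p = 3.31e-05). Its near-identical partner Hist1h2ap read almost the same, with the same log2 changes. Hist1h2ak, the cluster 1 H2A gene with the largest change, had 1165 and 1014 with MDA-MB-231 EVs, 817 and 977 with MCF10A EVs, and 640 and 614 with PBS. Its groups did not overlap, and the log2 changes were 0.79 ± 0.08 (limma adjusted p = 1.46e-06) and 0.51 ± 0.08 (limma adjusted p = 0.000164) against PBS. Hist1h2ag had 2432 and 2192 reads with MDA-MB-231 EVs, 1830 and 2095 with MCF10A EVs, and 1431 and 1497 with PBS. Hist1h2ac had 2222 and 2021 with MDA-MB-231 EVs, 1716 and 1920 with MCF10A EVs, and 1329 and 1411 with PBS. Both of these H2A genes repeated the order of Hist1h2ao, with log2 changes of 0.66 and 0.63 for MDA-MB-231 EVs and of 0.42 and 0.41 for MCF10A EVs. Over the 12 cluster 1 genes other than Hist1h2aa, the summed values were 31074 and 28244 with MDA-MB-231 EVs, 23520 and 26793 with MCF10A EVs, and 18396 and 19138 with PBS. A read shared by several of these genes may stand in more than 1 of them, so the sum is not a count of molecules.

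The cluster 2 pair Hist2h2aa1 and Hist2h2aa2 moved less. Hist2h2aa2 had 2535 and 2406 normalised reads with MDA-MB-231 EVs, 2182 and 2198 with MCF10A EVs, and 1748 and 1957 with PBS. The groups did not overlap. Its log2 change was 0.42 ± 0.05 for MDA-MB-231 EVs (limma adjusted p = 6.98e-06) and 0.24 ± 0.05 for MCF10A EVs (limma adjusted p = 0.00129). The other cluster 2 genes, Hist2h2ac and Hist2h2ab, were called with MDA-MB-231 EVs at log2 changes of 0.53 and 0.40. Hist2h2ac had 409 and 412 with MDA-MB-231 EVs, 309 and 359 with MCF10A EVs, and 286 and 281 with PBS, with no overlap between groups. The log2 differences of Hist2h2ac and Hist2h2ab with MCF10A EVs were 0.23 and 0.13, with limma adjusted p of 0.0595 and 0.451.

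Of the 3 H2A genes with mostly their own sequence, Hist3h2a was called higher with both EVs, Hist2h2ab with MDA-MB-231 EVs, and Hist1h2aa with neither. Hist3h2a, the H2A gene of cluster 3, had 306 and 273 normalised reads with MDA-MB-231 EVs, 233 and 288 with MCF10A EVs, and 194 and 188 with PBS. Both EV groups were above PBS and overlapped each other. The log2 change was 0.60 ± 0.11 for MDA-MB-231 EVs (limma adjusted p = 0.000752) and 0.44 ± 0.11 for MCF10A EVs (limma adjusted p = 0.0084). An annotated transcript of Trim17, a ubiquitin ligase gene, also spans the coding bases of Hist3h2a, and Trim17 itself had 30.5 and 32.0 normalised reads with MDA-MB-231 EVs, 32.1 and 23.4 with MCF10A EVs, and 33.5 and 26 with PBS. Hist2h2ab had 196 and 202 with MDA-MB-231 EVs, 168 and 162 with MCF10A EVs, and 148 and 153 with PBS, and its log2 change of 0.40 ± 0.12 passed for MDA-MB-231 EVs (limma adjusted p = 0.0128). Hist1h2aa had 39.6 and 39.4 with MDA-MB-231 EVs, 35.5 and 34.7 with MCF10A EVs, and 34.5 and 24.1 with PBS, and it was called in neither comparison. Without MDA-MB-231 EV replicate 1 the call of Hist3h2a for MDA-MB-231 EVs was lost, and its call for MCF10A EVs was lost in 4 of the 6 fits that left out a library.

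H2afx, which shares the printed run, rose as well. It had 3821 and 3461 normalised reads with MDA-MB-231 EVs, 3430 and 3571 with MCF10A EVs, and 2704 and 2746 with PBS. Its log2 change was 0.42 (limma adjusted p = 1.94e-06) for MDA-MB-231 EVs and 0.36 (limma adjusted p = 1.42e-05) for MCF10A EVs, below those of Hist1h2ao. H2afj, a replication-independent H2A variant that shares windows with members too, had 2011 and 1997 with MDA-MB-231 EVs, 2099 and 2148 with MCF10A EVs, and 2057 and 2101 with PBS. H2afj was called in neither comparison. The part that reads from H2afx or H2afj play in the values of the members was not tested.

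**Figure D2:**
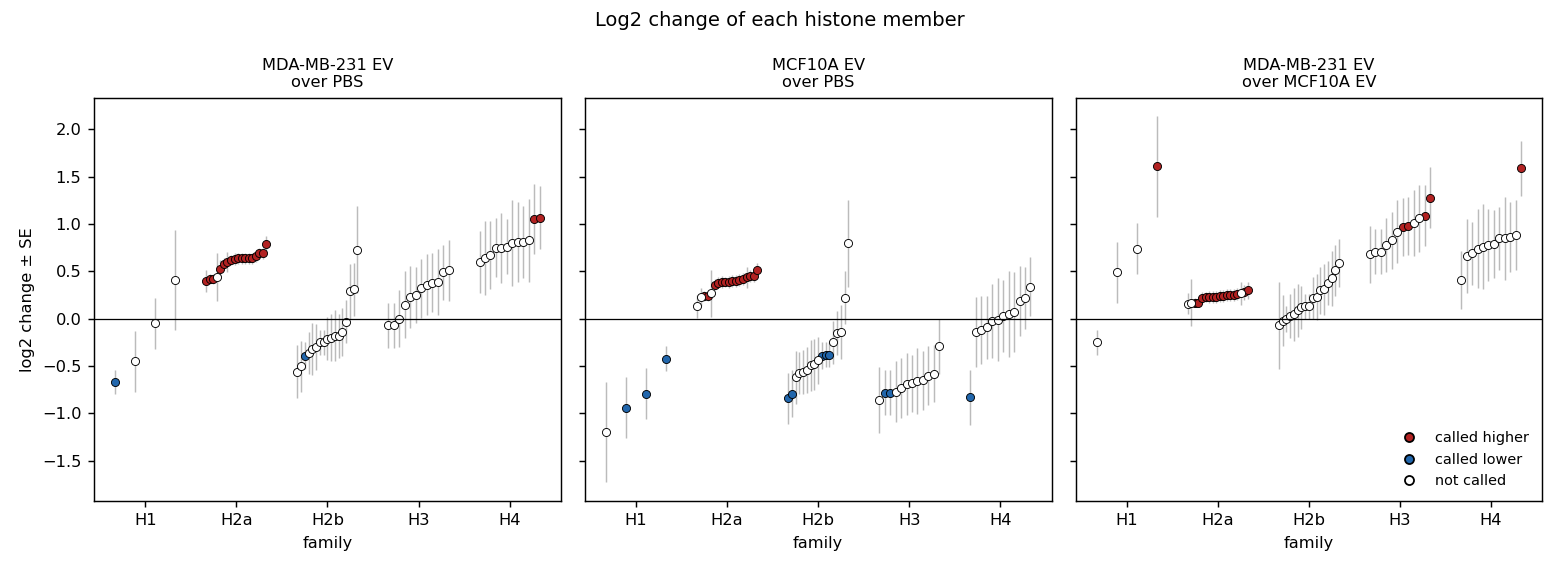
Log2 change (vertical axis, with SE) of each of the 63 members described, by family, for MDA-MB-231 EV over PBS, MCF10A EV over PBS, and MDA-MB-231 EV over MCF10A EV. Filled points passed the limma test at an adjusted p under 0.05, red higher and blue lower. H2A points lie above 0 in all 3 panels, mostly with small errors, whereas the other families have wide errors and few calls.

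Over all 67 members tested, 19 rose and 2 fell with MDA-MB-231 EVs against PBS, while 17.9% of all genes tested rose and 16.9% fell. The members' median log2 change was 0.41, and that of all genes was 0.01. With MCF10A EVs 15 members rose and 11 fell, while 17.1% of all genes rose and 14.6% fell. Here the median over the members was -0.14, and that of all genes was 0.00. H2A genes made up 17 of the 19 members that rose with MDA-MB-231 EVs and all 15 that rose with MCF10A EVs. Counted only over the 17 members with at least 50% of their windows in no other member, 2 rose and 1 fell with MDA-MB-231 EVs, and 1 rose and 4 fell with MCF10A EVs. That share leaves out genes beyond the members. With the transcripts of all genes searched, Hist3h2a, 1 of those that rose, had 0.0% of its windows to itself. Hist1h2bm had 43.8% and Hist2h2bb 45.9%. By cluster, 14 of 53 tested members rose in cluster 1 with MDA-MB-231 EVs, 4 of 10 in cluster 2, 1 of 3 in cluster 3 and 0 of 1 in cluster 4. For MCF10A EVs these numbers were 12, 2, 1 and 0, and 8 members of cluster 1 and 3 of cluster 2 fell.

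**Figure D3:**
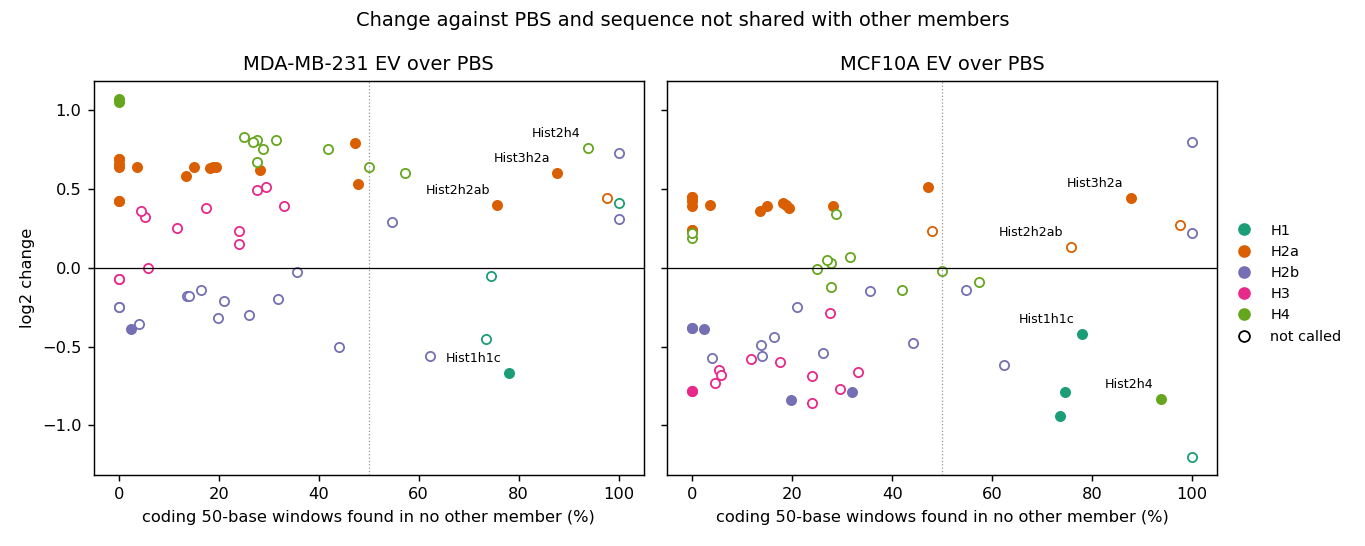
Share of 50-base coding windows found in no other member (horizontal axis, percent) and log2 change against PBS (vertical axis) of the members described, for MDA-MB-231 EV and MCF10A EV. Filled points were called, the colour gives the family, and the dotted line marks 50%. Hist3h2a, at 87.7%, lies near the other H2A genes at 0.60 and 0.44, and Hist1h1c, at 78.0%, lies below 0 in both panels.

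Unlike the H2A genes, H2B genes had medians below 0 over the family, but not in every cluster. With MDA-MB-231 and MCF10A EVs, the medians were -0.25 and -0.48 over the 15 members of cluster 1. They were 0.52 and 0.51 over the 2 of cluster 2, Hist2h2be and Hist2h2bb. These 2 share no window with another member, had mean values of 21.3 and 7.6, and were not called. The 2 members of cluster 3, under the level described, had medians of -0.22 and -0.89. Of 19 H2B members tested, 0 were called higher and 1 lower with MDA-MB-231 EVs, with a median log2 difference of -0.21, while 16.9% of all genes were lower. With MCF10A EVs 0 were higher and 5 lower, with a median of -0.48, while 14.6% of all genes were lower. The count higher was 0 also at an unadjusted p under 0.05, by edgeR and by DESeq2 in both comparisons. Hist1h2bc, an H2B gene of cluster 1, had 119 and 132 normalised reads with MDA-MB-231 EVs, 114 and 138 with MCF10A EVs, and 162 and 167 with PBS. Both EV groups were below PBS and overlapped each other. Its log2 change was -0.39 ± 0.14 in each comparison, just past the threshold (limma adjusted p = 0.0413 for MDA-MB-231 EVs and 0.0473 for MCF10A EVs). Hist1h2bq and Hist1h2br, 1 measurement, had 131 and 136 with MDA-MB-231 EVs, 114 and 130 with MCF10A EVs, and 155 and 164 with PBS. They were called lower with MCF10A EVs alone, at a log2 change of -0.38 ± 0.13 (limma adjusted p = 0.0388). The other H2B genes called lower with MCF10A EVs were Hist1h2bf, at -0.84, and Hist1h2bh, at -0.79. Hist1h2bf had 29.5 and 37.2 reads with MDA-MB-231 EVs, 18.5 and 28.3 with MCF10A EVs, and 41.3 and 42 with PBS. Hist1h2bh had 35.6 and 47.8 with MDA-MB-231 EVs, 23.8 and 30.8 with MCF10A EVs, and 44.7 and 50.5 with PBS. Hist1h2bg had 56.9 and 57.5 with MDA-MB-231 EVs, 34.8 and 55.0 with MCF10A EVs, and 62.0 and 68.3 with PBS, and was called in neither. These H2B calls depended on single libraries. That of Hist1h2bc with MDA-MB-231 EVs was lost in 4 of the 6 fits without a library, and 0 H2B genes were called with MCF10A EVs when either PBS library, the first MCF10A EV library or the second MDA-MB-231 EV library was left out.

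Some H2A and H2B genes lie head to head. In the RefSeq promoter windows (GRCm38.p6, 300 bases across each gene start), 9 H2A members overlapped an H2B member on the other strand, by 220 to 279 bases. The H2A gene was called higher in 8 of the 9 pairs with MDA-MB-231 EVs and in 8 with MCF10A EVs, with medians of 0.64 and 0.40. As these H2A genes share coding windows, the 8 calls cannot be taken as independent measurements. Of all genes tested, 17.9% and 17.1% rose. The H2B partner was called higher in 0 of the 9 with either, and lower in 0 with MDA-MB-231 EVs and in 2 with MCF10A EVs, with medians of -0.25 and -0.54. Of all genes tested, 16.9% and 14.6% fell, and the 2 of 9 are near the latter share. One such pair is Hist1h2ae and Hist1h2bg. Hist1h2ae had 2076 and 1907 normalised reads with MDA-MB-231 EVs, 1590 and 1786 with MCF10A EVs, and 1247 and 1309 with PBS, at log2 changes of 0.64 and 0.40. The 300-base window of Hist1h2ae (chr13:23571171-23571470, minus strand) is printed with the motifs searched in capitals. It overlaps the window of Hist1h2bg by 279 bases.
Hist1h2ae: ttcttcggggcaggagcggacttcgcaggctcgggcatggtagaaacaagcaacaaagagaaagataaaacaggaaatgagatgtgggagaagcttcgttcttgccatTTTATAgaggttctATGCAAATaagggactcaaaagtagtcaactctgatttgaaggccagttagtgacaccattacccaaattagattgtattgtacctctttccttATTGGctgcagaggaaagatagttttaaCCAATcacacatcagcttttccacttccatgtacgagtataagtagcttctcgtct
Short motifs were searched on both strands in the 60 members with 1 promoter entry. The octamer ATTTGCAT, bound by the factor Pou2f1, was in 41.2% of 17 H2A and 40% of 15 H2B promoters, in 0 of the H1, H3 and H4 promoters, and in 1.7% of 32851 mouse promoters. The H2A and H2B shares are not independent. In 3 of the 9 head-to-head pairs the octamer lay in the overlapping windows and counts in both families. CCAAT was in all H1, H2A, H2B and H3 promoters, in 25% of 12 H4 promoters and in 37.4% of all. TATAAA was in 40% to 66.7% of the promoters of a family and in 13.6% of all. As either strand counts, a match can belong to the head-to-head partner. The match in the printed window, TTTATA, reads TATAAA on the strand of Hist1h2bg. The motifs share no bases with each other in the printed window. A match is a description of the sequence and not a binding site.

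H3 genes were low, and few of them were called against PBS. With MDA-MB-231 EVs, 0 of 12 were called in either direction against PBS, and the count was 0 at an unadjusted p under 0.05, by edgeR and by DESeq2. With MCF10A EVs 2 were called lower and 0 higher, with a median log2 difference of -0.68, while 14.6% of all genes were lower. The 2 are Hist2h3c1 and Hist2h3c2, 1 measurement of a cluster 2 H3 gene, with 72.3 and 133 normalised reads with MDA-MB-231 EVs, 56.0 and 63.8 with MCF10A EVs, and 115 and 93.1 with PBS. The MCF10A EV libraries were the lowest, at a log2 change of -0.78 ± 0.24 against PBS (limma adjusted p = 0.0205), and the MDA-MB-231 EV libraries spanned the PBS values. The call was lost without either PBS and without either MCF10A EV library. Hist2h3b, the other H3 gene of cluster 2, had 29.5 and 53.9 with MDA-MB-231 EVs, 23.7 and 25.5 with MCF10A EVs, and 47.5 and 33.4 with PBS, and was not called. Over the 9 H3 genes of cluster 1, median values were 31.5 and 32 with MDA-MB-231 EVs, 14 and 17.8 with MCF10A EVs, and 33.3 and 19.5 with PBS. The PBS libraries stood apart, with replicate 1 at the MDA-MB-231 EV level and replicate 2 near the MCF10A EV level.

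H4 genes showed the widest gap between PBS replicates. The 7 cluster 1 genes Hist1h4a, Hist1h4b, Hist1h4c, Hist1h4f, Hist1h4h, Hist1h4j and Hist1h4k had 42.7 to 48.8 and 38.5 to 54.2 normalised reads in the MDA-MB-231 EV libraries and 24.7 to 29.0 and 23.7 to 29.8 in the MCF10A EV libraries. In the PBS libraries they had 46.0 to 53.4 in replicate 1 and 12.5 to 18.2 in replicate 2. PBS replicate 1 lay in or just above the range of the MDA-MB-231 EV libraries, and replicate 2 lay below all others. Hist1h4k had 45.7 and 54.2 with MDA-MB-231 EVs, 29.0 and 27.9 with MCF10A EVs, and 52.4 and 18.2 with PBS. Of 13 H4 members, 2 were called higher with MDA-MB-231 EVs and 0 lower, a share near the 17.9% of all genes called higher. The 2, Hist1h4n and Hist1h4m, have the same coding bases and nearly proportional reads, so their calls cannot be taken as independent measurements. Hist1h4n had 75.2 and 74.6 with MDA-MB-231 EVs, 49.1 and 34.2 with MCF10A EVs, and 55.7 and 21.9 with PBS, a log2 change of 1.07 ± 0.33 (limma adjusted p = 0.02). Hist1h4m had 37.6 and 37.3 with MDA-MB-231 EVs, 24.6 and 16.7 with MCF10A EVs, and 27.9 and 11 with PBS, a log2 change of 1.05 ± 0.37 for MDA-MB-231 EVs (limma adjusted p = 0.0402). Each call was lost in 5 of the 6 fits that left out a library, among them the one without PBS replicate 2. By contrast, 11 H4 members were called higher without PBS replicate 1. Hist1h4i had 54.8 and 54.4 with MDA-MB-231 EVs, 43.9 and 37.9 with MCF10A EVs, and 48.3 and 21.1 with PBS, and was not called. With MCF10A EVs 0 were higher and 1 lower.

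That 1 was Hist2h4, the H4 gene of cluster 2, with 93.8% of its windows in no other member. It had 63.2 and 126 normalised reads with MDA-MB-231 EVs, 33.2 and 25.1 with MCF10A EVs, and 46.9 and 58.1 with PBS. The 3 groups did not overlap, and the MDA-MB-231 EV libraries differed widely from each other. Its log2 change was -0.83 ± 0.29 for MCF10A EVs against PBS (limma adjusted p = 0.0373), and its difference of 0.76 for MDA-MB-231 EVs did not pass (limma adjusted p = 0.0514). The MCF10A EV call was lost without either PBS and without either MCF10A EV library.

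Of 5 H1 genes tested, 1 fell with MDA-MB-231 EVs, while 16.9% of all genes fell, and 3 fell with MCF10A EVs, while 14.6% of all genes fell. The median log2 differences were -0.05 and -0.79, and 0 H1 genes were called higher in either comparison by limma, edgeR or DESeq2, with 1 higher at an unadjusted p under 0.05 for MDA-MB-231 EVs and 0 for MCF10A EVs. Hist1h1c, the linker histone H1.2, had 118 and 122 normalised reads with MDA-MB-231 EVs, 136 and 151 with MCF10A EVs, and 187 and 197 with PBS. The groups did not overlap. The log2 change was -0.67 ± 0.13 for MDA-MB-231 EVs (limma adjusted p = 0.000628), called in every fit that left out a library, and -0.42 ± 0.13 for MCF10A EVs (limma adjusted p = 0.0195), called in 3 of those 6. Hist1h1d (H1.3) had 29.5 and 41.4 with MDA-MB-231 EVs, 23.7 and 25.5 with MCF10A EVs, and 69.8 and 33.1 with PBS. Hist1h1e (H1.4) had 64 and 66 with MDA-MB-231 EVs, 35.6 and 41.7 with MCF10A EVs, and 96.6 and 46.9 with PBS. Both were called lower with MCF10A EVs, at -0.94 ± 0.32 and -0.79 ± 0.27 (limma adjusted p = 0.0349 and 0.0399), and each call was kept in 1 of the 6 fits that left out a library, the one without PBS replicate 2, the lower PBS library. Hist1h1b (H1.5) had 6.13 and 16.9 with MDA-MB-231 EVs, 4.25 and 1.6 with MCF10A EVs, and 8.65 and 6.50 with PBS, and was not called against PBS.

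**Figure D4:**
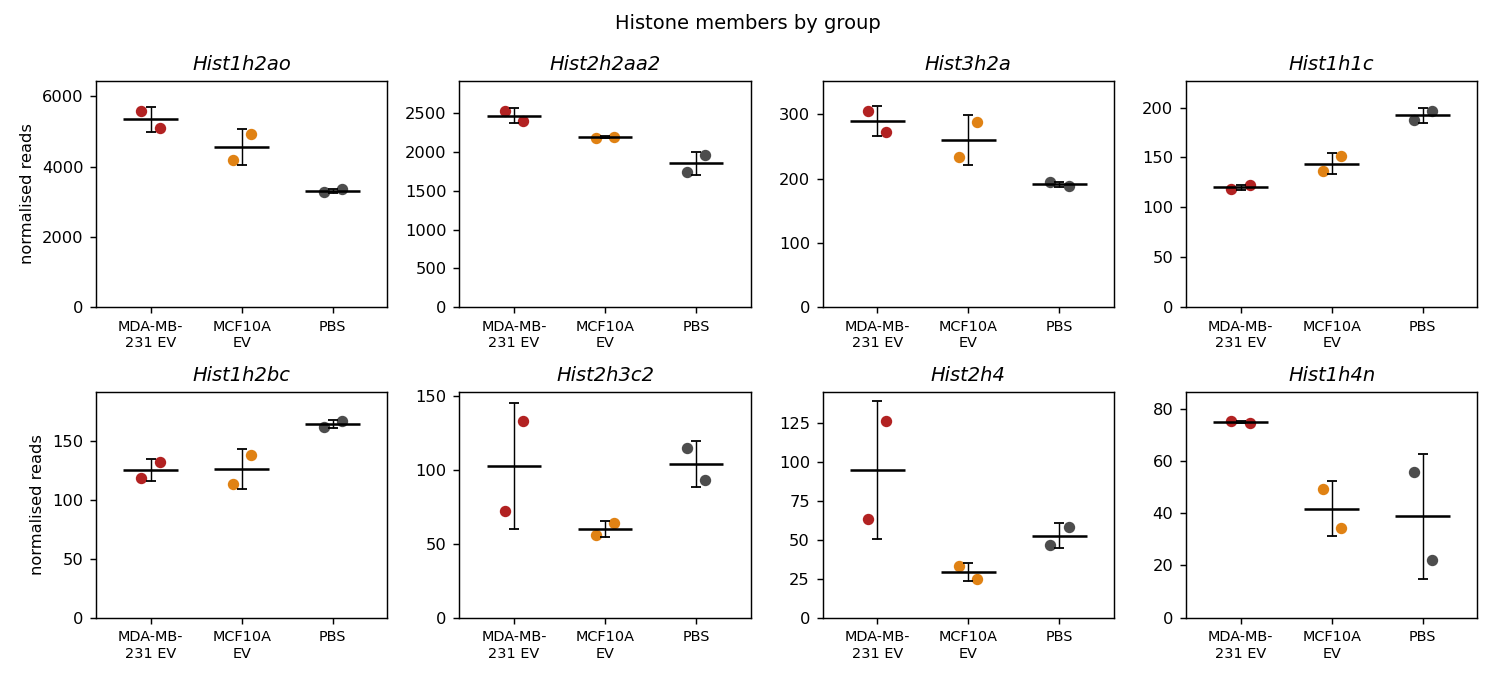
Normalised reads (axis from 0) of 8 histone members by group. Points are the 2 libraries of a group, black bars are means and error bars SDs. Hist1h2ao, Hist2h2aa2 and Hist3h2a are higher in both EV groups than with PBS, Hist1h1c and Hist1h2bc are lower, and Hist2h4 ranges from 63.2 to 126 with MDA-MB-231 EVs.

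Set directly against each other, MDA-MB-231 EVs gave higher values than MCF10A EVs for 21 of the 67 members and lower values for 0, while 6.84% of all genes tested were higher and 10.1% lower. The count lower was 0 also at an unadjusted p under 0.05, by edgeR and by DESeq2. The median log2 difference was 0.38 over the members and -0.001 over all genes. Of the 21, 15 were H2A genes with small differences of 0.17 to 0.30. As these genes share coding windows, the 15 calls cannot be taken as independent measurements. The differences included 0.23 ± 0.06 for Hist1h2ao (limma adjusted p = 0.013) and 0.28 ± 0.08 for Hist1h2ak (limma adjusted p = 0.0237). Hist2h4 had the smallest p of the members, with a log2 difference of 1.59 ± 0.29 (limma adjusted p = 0.00119), and its call was lost without MCF10A EV replicate 2 and without MDA-MB-231 EV replicate 2. H3 genes supplied 4 calls, of which Hist1h3e was the largest. Hist1h3e had 24.4 and 22.4 normalised reads with MDA-MB-231 EVs, 9.65 and 8.42 with MCF10A EVs, and 17.3 and 14.9 with PBS, a log2 difference between the EVs of 1.28 ± 0.32 (limma adjusted p = 0.0122). Hist1h3b had 35.6 and 36.2 with MDA-MB-231 EVs, 14.1 and 18.8 with MCF10A EVs, and 37.6 and 20.3 with PBS. Its log2 difference was 1.09. Hist1h3d had 33.5 and 33 with MDA-MB-231 EVs, 13 and 20.6 with MCF10A EVs, and 30.2 and 21.3 with PBS. Hist1h3h had 33.5 and 35.1 with MDA-MB-231 EVs, 16.2 and 17.8 with MCF10A EVs, and 36.6 and 20.3 with PBS. The log2 differences of Hist1h3d and Hist1h3h were 0.98 and 0.97. The EV groups did not overlap in these H3 genes or in the H3 members left uncalled, so this does not set the called ones apart. The share of all genes without overlap was not taken. The median H3 member had 14.6% of its coding windows in no other member. The H3 members therefore cannot be taken as independent measurements. DESeq2 called 0 H3 members in this comparison, and edgeR called 9. The H3 count was also 0 without either MCF10A EV library and without MDA-MB-231 EV replicate 2. Hist1h1b was called at 1.61 ± 0.53 (limma adjusted p = 0.0486) on values of at most 16.9 normalised reads. The number called fell with every library left out, to 0 without MDA-MB-231 EV replicate 2 and to 1 without MCF10A EV replicate 1. Among H2A genes, 12 were called without MCF10A EV replicate 2, 3 without either PBS library, and 0 without MCF10A EV replicate 1 or either MDA-MB-231 EV library. The H2A calls between the EVs numbered 0 with limma without trend, a run that called 124 of 15025 genes higher, against 1027 in the main run.

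Genes outside the clusters are given by list, beside the share of all genes called: 17.9% rose and 16.9% fell with MDA-MB-231 EVs, and 17.1% rose and 14.6% fell with MCF10A EVs. Of 35 tested genes of histone transcription and 3′ end processing, 19 rose and 1 fell with MDA-MB-231 EVs, and 16 rose and 1 fell with MCF10A EVs. Slbp, the stem-loop binding protein, had 1740 and 1647 normalised reads with MDA-MB-231 EVs, 1506 and 1561 with MCF10A EVs, and 1283 and 1256 with PBS. Its groups did not overlap, and its log2 changes were 0.41 (limma adjusted p = 2.62e-06) and 0.27 (limma adjusted p = 0.000231). Ncbp2 and Ncbp1, the cap-binding complex, rose by 0.39 and 0.31 with MDA-MB-231 EVs and by 0.36 and 0.30 with MCF10A EVs. Srrt, which links that complex to 3′ processing, rose by 0.23 and 0.17. Cstf2, a cleavage factor, rose by 0.38 and 0.28, and Snrpd3, a ring protein that the U7 particle shares with spliceosomal particles, by 0.34 and 0.32. Lsm10 and Lsm11, the ring proteins particular to U7, were named after their values were seen. Lsm10 had 294 and 288 normalised reads with MDA-MB-231 EVs, 279 and 306 with MCF10A EVs, and 322 and 303 with PBS, and Lsm11 had 967 and 963 with MDA-MB-231 EVs, 1030 and 991 with MCF10A EVs, and 1019 and 1030 with PBS. Neither was called.

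Of 26 chaperones and assembly factors that bring histones to DNA, 20 rose and 6 were not called with MDA-MB-231 EVs, while 17.9% of all genes rose. With MCF10A EVs 19 rose and 1 fell, while 17.1% of all genes rose. Nasp, which holds soluble H3 and H4, had 1965 and 1927 normalised reads with MDA-MB-231 EVs, 1826 and 1821 with MCF10A EVs, and 1255 and 1252 with PBS. The EV libraries stood well above PBS, at log2 changes of 0.63 (limma adjusted p = 9.79e-09) and 0.54 (limma adjusted p = 1.24e-07). Chaf1a, a subunit of the chromatin assembly factor at the fork, rose by 0.45 and 0.32, and Set, a histone-binding chaperone, by 0.48 and 0.40. Hjurp, the chaperone of centromeric H3, rose by 0.33 and 0.21, and Ipo4, the importin of H3 and H4, by 0.19 and 0.36.

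The S phase genes of the list rose without exception against PBS, 20 of 20 with either EV, while 17.9% of all genes rose with MDA-MB-231 EVs and 17.1% with MCF10A EVs. Mcm4, a subunit of the replicative helicase, had 5875 and 5824 normalised reads with MDA-MB-231 EVs, 5293 and 5234 with MCF10A EVs, and 3801 and 3903 with PBS. Its log2 changes were 0.60 (limma adjusted p = 9.38e-10) and 0.45 (limma adjusted p = 5e-08). Mcm2, Mcm3, Mcm5 and Mcm6 of the same helicase rose by 0.59 to 0.64 with MDA-MB-231 EVs and by 0.41 to 0.56 with MCF10A EVs. Rrm1, the large subunit of ribonucleotide reductase, rose by 0.46 and 0.34.

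Among 14 cell cycle regulators of histone transcription, 7 rose and 2 fell with MDA-MB-231 EVs, and 8 rose and 3 fell with MCF10A EVs. Of all genes tested, 17.9% and 17.1% rose. The numbers that fell are near the shares of all genes that fell, 16.9% and 14.6%. Ccna2, the S phase cyclin A, rose by 0.39 and 0.26, and Ccne1, cyclin E, by 0.37 and 0.53. Rbl1, the pocket protein p107, rose by 0.52 and 0.38, while Rb1, the retinoblastoma protein, changed by -0.25 and -0.61. Inhibitors of cyclin-dependent kinases differed between the EVs. Cdkn1a, p21, had 3211 and 3089 normalised reads with MDA-MB-231 EVs, 4115 and 4179 with MCF10A EVs, and 4431 and 4339 with PBS. It fell with MDA-MB-231 EVs by 0.48 on the log2 scale (limma adjusted p = 3.2e-08) and was not called with MCF10A EVs. Cdkn1b, p27, had 1146 and 1129 with MDA-MB-231 EVs, 844 and 789 with MCF10A EVs, and 1034 and 1037 with PBS. It fell with MCF10A EVs by 0.34 (limma adjusted p = 0.000101) and was not called with MDA-MB-231 EVs. Between the EVs, Cdkn1a differed by -0.40 (limma adjusted p = 8.13e-07) and Cdkn1b by 0.48 (limma adjusted p = 1.02e-05).

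**Figure D5:**
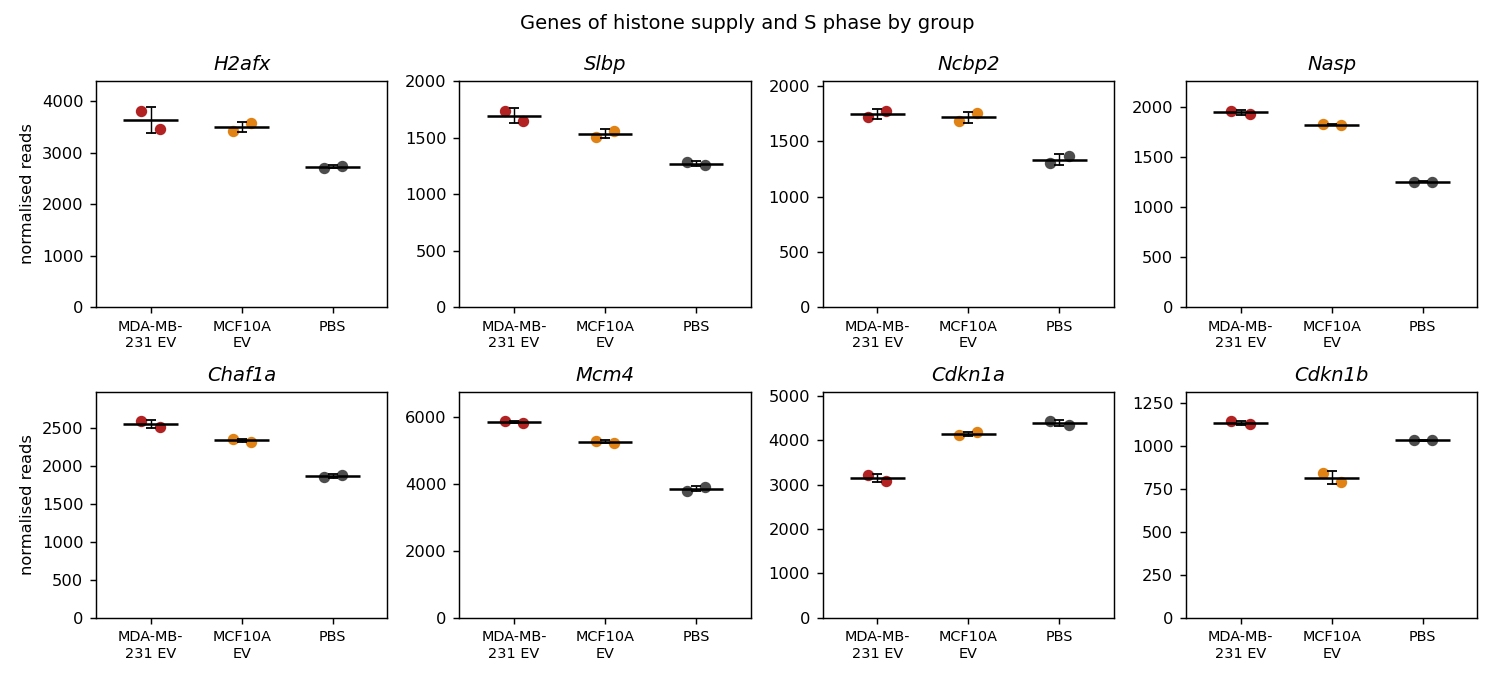
Normalised reads (axis from 0) of 8 genes outside the clusters by group, with points for the 2 libraries, bars for means and error bars for SDs. H2afx, Slbp, Ncbp2, Nasp, Chaf1a and Mcm4 are higher in both EV groups than with PBS, Cdkn1a is lowest with MDA-MB-231 EVs, and Cdkn1b is lowest with MCF10A EVs.

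Of 10 replication-independent variants tested, 3 rose and 7 were not called with MDA-MB-231 EVs, while 17.9% of all genes rose. With MCF10A EVs 3 rose and 3 fell, while 17.1% of all genes rose and 14.6% fell. Besides H2afx, H2afz, the variant H2A.Z, rose by 0.22 and 0.17, and H2afy2, macroH2A2, rose by 0.37 with MDA-MB-231 EVs alone. H3f3a, the replacement histone H3.3, had 5991 and 5879 normalised reads with MDA-MB-231 EVs, 5411 and 5058 with MCF10A EVs, and 6121 and 5943 with PBS. It fell with MCF10A EVs by 0.21 (limma adjusted p = 0.00034) and was not called with MDA-MB-231 EVs. H1f0, the replacement linker histone, fell with MCF10A EVs by 0.25 (limma adjusted p = 1.49e-05) and had a log2 difference of -0.02 with MDA-MB-231 EVs. H2afv, another H2A.Z gene, fell with MCF10A EVs by 0.26.

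The libraries held 22451173 to 29315530 reads in genes. All 10 fibroblast markers of a list passed the filter on low values, with summed values of 371720 to 379793 with MDA-MB-231 EVs, 375575 to 385780 with MCF10A EVs and 430435 to 430937 with PBS. The epithelial markers Epcam, Krt5 and Krt18 were at 0 in all libraries, and their list of 8 summed to 31.5 to 43.5 with MDA-MB-231 EVs, 37 to 42.9 with MCF10A EVs and 48.9 to 50.5 with PBS. Summed macrophage and leukocyte markers, nearly all Cd14, were 993 to 1059 with MDA-MB-231 EVs, 1779 to 1833 with MCF10A EVs and 3036 to 3142 with PBS, while Emr1 was at 0 and Ptprc at most 1.05. The endothelial list summed to 149 to 188 with MDA-MB-231 EVs, 291 to 338 with MCF10A EVs and 354 to 363 with PBS, nearly all Cdh5. The part of these marker differences in the histone values was not tested.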

How the data were processed

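The data were RNA-seq gene values of 6 libraries, 2 for each of 3 groups. Per the labels' protocols, the library kit was a stranded mRNA kit. Per the submitters' processing notes, TopHat2 and edgeR were used with the human build hg19, whereas the rows name mouse genes, so the mouse build used is unknown and the files' genes are located by chromosome only. The read counter, strand setting and annotation are not stated in the sources used here.

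The values are signal per gene, as deposited by the authors, and have the form of edgeR pseudo-counts adjusted to a common library size. Inverting the adjustment gave whole reads, and 100.0% of 122850 values came out whole within a relative 1e-06. A check by correlation found no shared deviation of samples with the same replicate number, which cannot show whether they were handled together.

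limma 3.58.1 in R 4.3.3 was fitted to log2 of the value plus 1, with trend, over 15025 genes with at least 1 in at least 2 libraries and all 6 libraries in 1 model (3 residual and 11.5 prior degrees of freedom). Calls used a Benjamini-Hochberg adjusted p, over all genes tested, under 0.05. Log2 changes are on that scale and understate the change of low genes. edgeR 4.0.16 (quasi-likelihood, TMM) and DESeq2 1.42.0 on the recovered reads were alternatives, along with other pseudocounts, filters and scalings, a replicate block and each library left out. The tests were run on simulated counts with known changes. SDs, intervals and floors cover these libraries and counting error only.

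Members and gene lists were chosen with earlier results of these data known. Values in every library are given for the 4 members of each family with the highest mean, and for the 6 called higher and 6 called lower with the largest change in each comparison. From each context list up to 6 called genes with the smallest p are named. Coding sequences and stem-loops came from GENCODE vM21 (GRCm38), and promoters from RefSeq (GRCm38.p6).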

Additional observations from a re-analysis of the deposited data

Results flagged for a closer look

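Of the 21 members whose changes against PBS differed between MDA-MB-231 EVs and MCF10A EVs by the direct limma contrast of the 2 EV groups, 13 are among those named by the rule on level and size of change. The log2 differences, MDA-MB-231 EV over MCF10A EV, were 1.61 for Hist1h1b and 1.59 for Hist2h4. For the H3 genes they were 1.28 for Hist1h3e, 1.09 for Hist1h3b, 0.98 for Hist1h3d and 0.97 for Hist1h3h. Among H2A genes they were 0.28 for Hist1h2ak, 0.24 for Hist1h2ag, 0.23 for Hist1h2ao and Hist1h2ap, 0.22 for Hist1h2ac, and 0.17 for Hist2h2aa1 and Hist2h2aa2. Hist1h2ao and Hist1h2ap, and Hist2h2aa1 and Hist2h2aa2, are pairs with the same coding sequence and count as 1 measurement each. The H2A genes moved the same way against PBS with both EVs. Hist2h4, Hist1h1b and the H3 genes named here had log2 differences from PBS above 0 with MDA-MB-231 EVs and below 0 with MCF10A EVs. Of these differences from PBS, only that of Hist2h4 with MCF10A EVs was called.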

How the results depend on the processing

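With MDA-MB-231 EVs the count of 19 ran from 16 to 27 with a library left out, and with MCF10A EVs the count of 15 ran from 14 to 16. limma without a trend in the prior spread called 1 member higher with MCF10A EVs and 1 between the EVs, against 18 higher with MDA-MB-231 EVs. Over all 15025 genes, that run called 1634 higher with MDA-MB-231 EVs, 1228 with MCF10A EVs and 124 between the EVs. The main run called 2688, 2571 and 1027. Between the EVs, DESeq2 called 577 of 12179 genes higher, and the fit of only the 2 groups called 628 of 15025. Genes lower with MCF10A EVs numbered 2193 in the main run, 1003 without trend, 2170 with quantile scaling and 1617 by DESeq2. Members lower with MDA-MB-231 EVs were 2, and 1 without a filter on low values, without trend, with library totals and by DESeq2; with a library left out they were 1 to 2. Members lower with MCF10A EVs were 11, and 7 without a filter, 2 without trend, and 3 with quantile scaling, by DESeq2 and with only the 2 groups fitted; with a library left out they were 0 to 8. Members higher between the EVs were 21, and 1 without trend, 13 by DESeq2 and 11 with only the 2 groups fitted; with a library left out they were 0 to 12. Over members with mostly their own sequence, an alternative chosen after seeing the data, the counts were 2 and 1, 1 and 4, and 2. Of the members named by the rule, none that was called changed direction under an alternative run. Of the family sums, which have no test, H3 with MDA-MB-231 EVs over PBS was 0.15 on the log2 scale, and -0.06 without MDA-MB-231 EV replicate 2 and -0.10 without PBS replicate 2. H4 with MCF10A EVs over PBS was -0.21, and 0.57 without PBS replicate 1, and H2B between the EVs was 0.17, and -0.01 without MCF10A EV replicate 1. The cause of these losses was not tested, apart from fewer libraries or members where these were left out. No shared deviation by replicate number was seen: the correlation of replicate differences between groups was -0.02 to 0.01. This cannot show whether libraries of the same number were handled together. With the replicate block 21 and 2, 15 and 11, and 23 and 0 members were called higher and lower in the 3 comparisons. Depth limits the H1, H2B, H3 and H4 genes, whose libraries held at most 211 reads of any 1 of them, against 5807 reads for an H2A gene.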
